A study of Caenorhabditis elegans with 2 samples.

Results

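The peaks described here are candidate sites of SEA-1 binding in early embryos of Caenorhabditis elegans. Each had its summit, the position of highest signal in a peak, at a noncoding RNA gene other than a tRNA, snoRNA or snRNA gene. They were taken from the authors' ranked list made from both replicates. A peak was included when its deposited signal value was 60 or more and its summit lay within 100 bp of a gene of the annotation classes ncRNA, miRNA or lincRNA, with no tRNA, snoRNA or snRNA gene within 100 bp. Chosen by signal value and position in this way were 289 peaks of the 3912 peaks that reached a signal value of 60, out of 103831 ranked peaks in all. They lay in 284 separate regions and had 275 distinct nearest genes. Of the other peaks at or above 60, 369 lay at tRNA, snoRNA or snRNA genes and 3254 at none of these genes. The levels below are therefore a description, and no test was made of them.

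SEA-1 is a T-box transcription factor. It was profiled by chromatin immunoprecipitation with an antibody against GFP, followed by sequencing, in whole early embryos (0 hour) collected by egg bleaching. All samples were of strain OP129, which carries the transgene wgIs129 (sea-1::TY1 EGFP 3xFLAG with unc-119(+)) in an unc-119(ed3) background, so every embryo was transgenic and the labels name no untagged group. The labels give 1 group of 2 biological replicates and no second condition. The chromatin was sonicated, with a size range of 200 to 800 given without a unit. Because whole embryos were used, a site bound in few cells and a site bound weakly in many cannot be told apart. How the authors normalized the signal value is not stated, and the depth behind it is unknown. The values of the replicates have no stated common scale, and the pooled value was on a larger scale than either of them.

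Most annotated ncRNA genes of the worm have no known function, but a few classes are well understood. RNase P and RNase MRP are ribonucleoproteins whose RNA subunits help to cut tRNA and ribosomal RNA precursors, and the RNA of the signal recognition particle (SRP) helps to bring secreted and membrane proteins to the endoplasmic reticulum. These RNAs and the tRNAs are known in animals as products of RNA polymerase III, which can start at boxes inside the gene, such as the B box, or at elements upstream of it that include a TATA box, and which ends at runs of T. miRNA genes are mostly read by RNA polymerase II, and a mature miRNA finds its targets mainly through its seed. The mir-35 and mir-51 families are each known to be needed for embryonic development in C. elegans.

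The sequences of these peaks are shown first because 5 of the 20 strongest peaks held letters of the B box, GGTTCGA, or of its form with A in place of the G, GGTTCAA. The strongest of the 289 lay at F36H1.17, an ncRNA gene of 89 bases (IV:11026131-11026219, minus strand), shown whole with GGTTCGA in capitals. C14F11.14 (X:6207833-6207923, plus strand), the pair ZK816.8 and ZK816.9 (X:3348028-3348118, plus strand) and the pair T22B2.12 and T22B2.9 (X:3914467-3914557, minus strand) held an identical element of 31 bases that occurred 3 times in the genome, each time at a peak described here. They are shown over 91 bases with GGTTCAA in capitals, as are the first 80 bases of T28D6.15 (III:11371410-11371489, minus strand). All sequences are from the RefSeq WBcel235 genome, 5′ to 3′ on the strand given, which is that of ZK816.9 and T22B2.12 and is opposite to ZK816.8 and T22B2.9.
F36H1.17: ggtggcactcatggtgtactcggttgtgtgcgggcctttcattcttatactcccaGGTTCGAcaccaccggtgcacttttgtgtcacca
C14F11.14: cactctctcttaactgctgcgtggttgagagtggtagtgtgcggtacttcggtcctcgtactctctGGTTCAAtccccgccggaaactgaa
ZK816.8 and ZK816.9: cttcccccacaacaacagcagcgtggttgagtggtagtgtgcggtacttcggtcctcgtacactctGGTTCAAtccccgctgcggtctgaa
T22B2.12 and T22B2.9: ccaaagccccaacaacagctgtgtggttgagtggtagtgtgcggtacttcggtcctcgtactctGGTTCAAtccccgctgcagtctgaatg
T28D6.15: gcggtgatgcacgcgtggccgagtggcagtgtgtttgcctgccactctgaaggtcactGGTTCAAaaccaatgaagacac

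A second set of strong peaks had TATATA shortly before the gene. It is shown for the last 60 bases before and the first 40 bases of mrpr-1, the RNA of RNase MRP (II:7200173-7200272, plus strand). It is also shown for the 40 bases before F08G2.13 (II:13834524-13834563, minus strand) and before W01D2.8 (II:14801428-14801467, minus strand). These last ncRNA genes also shared the letters GGTCCGG near the 5′ end and AACTTGAC near the 3′ end, shown in capitals in the genes themselves (II:13834449-13834523 and II:14801350-14801427, minus strand).
mrpr-1: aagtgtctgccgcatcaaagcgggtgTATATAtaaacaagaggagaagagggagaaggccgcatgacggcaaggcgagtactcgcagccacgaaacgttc
Before F08G2.13: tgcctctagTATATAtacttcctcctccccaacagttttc
Before W01D2.8: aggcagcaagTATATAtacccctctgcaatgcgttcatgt
F08G2.13: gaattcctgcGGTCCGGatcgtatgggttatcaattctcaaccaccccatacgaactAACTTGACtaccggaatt
W01D2.8: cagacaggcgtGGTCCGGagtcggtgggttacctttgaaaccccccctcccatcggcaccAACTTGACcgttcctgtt

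The mature miRNAs of the peaks at members of known families are shown with the seed, bases 2 to 8, in capitals. mir-52 and mir-54 have the seed ACCCGUA of the mir-51 family. It is shared by mir-51, whose gene lies beside F36H1.17, and by mir-53, mir-55 and mir-56, which had no ranked peak in the pooled list. mir-35, mir-36 and mir-42 have the seed CACCGGG of the mir-35 family, and mir-43 has another seed.
mir-52: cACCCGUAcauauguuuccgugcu
mir-54: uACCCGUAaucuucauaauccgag
mir-51: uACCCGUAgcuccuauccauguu
mir-35: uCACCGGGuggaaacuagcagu
mir-36: uCACCGGGugaaaauucgcaug
mir-42: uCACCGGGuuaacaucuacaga
mir-43: uAUCACAGuuuacuugcugucgc

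The strongest peaks were found at like levels in both replicates. The peak at F36H1.17 (IV:11026076-11026368) had a pooled signal value of 461, with 208 in replicate 1 and 238 in replicate 2, and its summit lay 6 bases inside the gene. The peak at C14F11.14 (X:6207773-6207984) had 358, with 168 and 182 in replicates 1 and 2. The peak at ZK816.9 (X:3347935-3348254), which shares the element of 31 bases, had 219, with 103 and 125. The third copy, at T22B2.9 (X:3914319-3914638), had 135, with 56.7 and 79.4, so the element had a peak at all 3 places, each time with the higher value in replicate 2. T28D6.15, in an intron of the tubulin gene tba-7 on the same strand (peak III:11371396-11371510), had 262, with 125 and 128. In these 5 peaks the replicates lay within 1.5-fold of each other, and all but the peak at T22B2.9 overlapped both replicates' own thresholded lists, that peak being absent from the list of replicate 1.

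Both RNase RNAs were among the 6 strongest. rpr-1, the RNA of RNase P, lies in an intron of the Integrator subunit gene ints-8 on the opposite strand. Its peak (I:13463838-13464105) had a signal value of 402, with 195 in replicate 1 and 198 in replicate 2, and the summit lay 13 bases inside the gene. mrpr-1 (peak II:7200100-7200419) had 244, with 125 in replicate 1 and 115 in replicate 2, and its summit lay 27 bases inside the gene. F08G2.13 (peak II:13834333-13834652) had 209, with 111 and 110.5, and W01D2.8 (peak II:14801221-14801540) had 163, with 86.9 and 75.3. Genes with both GGTCCGG and AACTTGAC did not all have peaks this strong. Of 11 such genes 7 had a ranked peak in the pooled list. Only these 2 reached a signal value of 60, the next being C18C4.17 with 46.1.

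Apart from mir-52 and the SRP RNA genes, described below, the other peaks among the 20 strongest lay at ncRNA genes without a known role. K10H10.11 had a signal value of 234, with 114 in replicate 1 and 113 in replicate 2, and its summit lay 67 bases before the gene. F57B10.17, in the promoter windows of dad-1 and tre-1, had 194, with 101 and 94.7. F52D10.7, in the promoter window of the 14-3-3 gene ftt-2, had 194, with 105 and 82.8. Y65B4BR.10 had 156, F59F5.9 had 148, F47B10.12 had 138 and F31F7.6 had 136. The widest gap between replicates among the 20 strongest peaks was 2.03-fold, at H37A05.5, which had 139 in the pooled list, 107 in replicate 1 and 52.6 in replicate 2, or 35.5 in replicate 2 when the peak with the nearest summit was taken. In 17 of the 20 the replicates lay within 1.5-fold of each other.

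**Figure D1:**
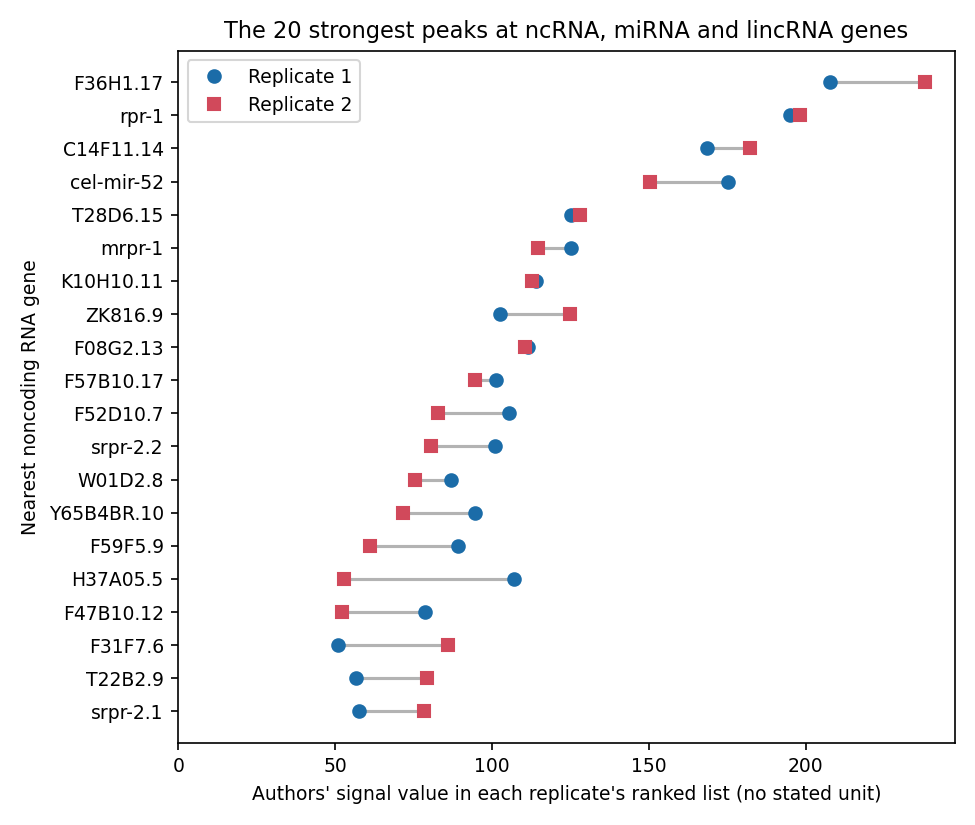
Authors' signal value (horizontal axis, no stated unit) of the 20 strongest peaks in the ranked list of replicate 1 (circles) and of replicate 2 (squares), with the nearest gene on the vertical axis in order of the pooled signal value. F36H1.17 is highest in both replicates, at 208 and 238, and the markers lie farthest apart in fold terms at H37A05.5, at 107 and 52.6.

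Below these, in the order of the signal value that chose them, the peaks were found less often in the thresholded lists. The fall in signal value is set by that order, and the lists come from the same reads. The counts that follow are therefore a description, and they were not set against other peaks of like signal value. All 20 strongest peaks, with signal values of 134 to 461, overlapped the authors' conservative list by at least 1 bp, and 19 overlapped both replicates' own lists. The 19 include H37A05.5, where the overlap in the own list of replicate 2 was below 50% of the shorter peak and did not hold the summit. Of the next 80 peaks, 68 overlapped the conservative list and 7 both own lists. Of the last 189, 30 and 2 did. Over all 289 peaks the median signal value was 73.2 (interquartile range 65.3 to 88.6, range 60.1 to 461), against 70.2 for all 3912 peaks at or above 60, 127 for those at tRNA, snoRNA or snRNA genes and 68.9 for those at none of these genes. The peaks just inside the threshold lay at R09A8.6 (60.3), F40D4.16 (60.3) and F23C11.2 (60.1). Those just outside it lay at F58F12.5 (59.98), K01A6.11 (59.9) and linc-149 (59.8).

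The lists made from both replicates held 118 of the 289 peaks in the conservative list (40.8%, 95% Wilson interval 35.3 to 46.6, which covers counting error only), against 30.1% of all 3912, and 112 in the second thresholded list, against 30.4%. The own list of replicate 1 held 45, against 12.8% of all, and that of replicate 2 held 53, against 13.5%. Only 28 peaks (9.69%, interval 6.79 to 13.6) overlapped both own lists, against 8.64% of all, 48.8% of those at tRNA, snoRNA or snRNA genes and 4.0% of those at none. The count was 25 when the overlap had to cover 50% of the shorter peak, and 25 when it had to hold the summit. An irreproducible discovery rate (IDR) of 0.01 or less in the ranked list was reached by 108, against 33.2%. IDR measures how consistently 2 peak sets rank a peak. The sets compared in this list carried almost no coordinates of the replicates' ranked peaks, so this count does not compare the replicates. In the other ranked list, whose sets carried the replicates' coordinates, 113 of the 289 (39.1%, interval 33.7 to 44.8) reached an IDR of 0.01 or less, against 32.8% of all. All these lists come from the same reads, and their overlaps are no independent evidence. The interval of the share in both own lists included the value for all peaks.

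A ranked peak of each replicate overlapped 278 of the 289 peaks, with 6 missing in replicate 1 and 5 in replicate 2. None of these 11 overlapped the conservative list. The median log2 ratio of replicate 1 to replicate 2 was 0.06 with an SD of 0.61 over the 278 peaks, and 149 were higher in replicate 1. The values lay within 2-fold of each other for 91.4% of the 278, against 91.2% of the 3751 peaks at or above 60 with a ranked peak in both. Across the 278 peaks the log10 values had Pearson's r of 0.50 and Spearman's rho of 0.27, and across the 20 strongest r was 0.76. These are descriptions across peaks, which share the same libraries and were chosen for a high pooled value. The largest gap towards replicate 2 was at T22B7.11, with 2.1 in replicate 1 and 35.9 in replicate 2, and the largest towards replicate 1 was at C16E9.21, with 44.6 and 12.9.

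**Figure D2:**
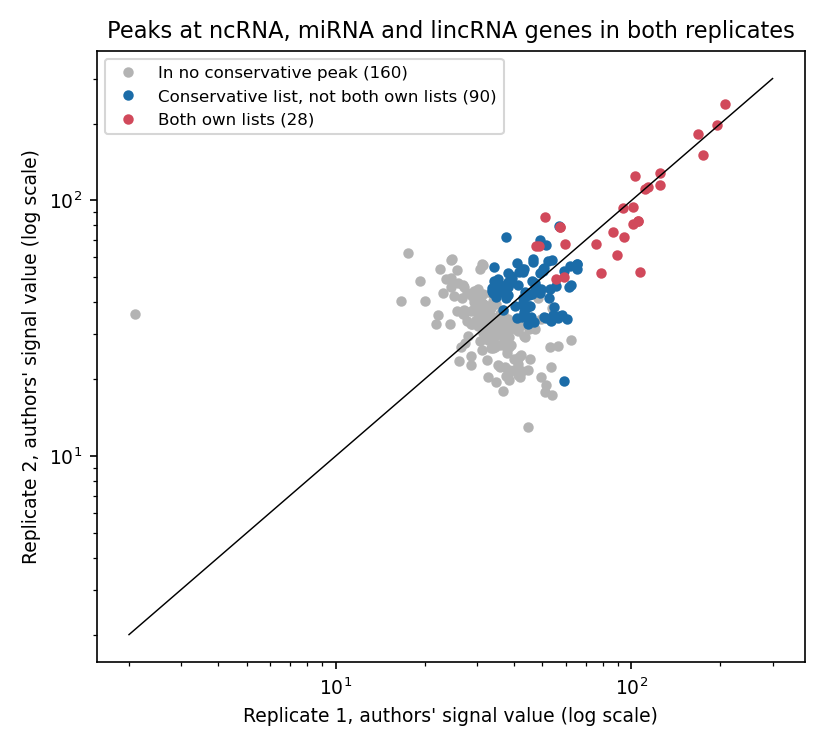
Authors' signal value in replicate 1 (horizontal axis, log scale) and replicate 2 (vertical axis, log scale) of the 278 peaks with a ranked peak in both; the line marks equal values. The 28 peaks in both own lists lie near the line at high values, the 90 others in the conservative list lie below most of them, and the 160 peaks in no conservative peak form the cloud at low values, with T22B7.11 alone at 2.1 in replicate 1.

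At miRNA genes lay 12 peaks, with a median signal value of 78.1, against 70.2 for all 3912 peaks at or above 60. Of the 12, 5 overlapped the conservative list and 1 both own lists, against 30.1% and 8.64% of all 3912. The strongest lay at mir-52 (IV:14033833-14034129), with 342 in the pooled list, 175 in replicate 1 and 150.4 in replicate 2, and its summit lay 7 bases inside the annotated gene of 100 bases. The clustered genes mir-35 and mir-36 shared a peak (II:11537571-11537890) of 92.5, with 43.2 in replicate 1 and 54 in replicate 2. mir-42 and mir-43 shared another (II:11889691-11890010) of 84.3, with 43.1 and 38.9. In replicate 2 the peak of 38.9 had its summit within 100 bp of mir-42 but not of mir-43. The strongest replicate 2 peak with its summit that near mir-43 had 19.1. mir-54 (X:13145005-13145324), in an intron of F09A5.3, had 82.3, with 50.5 and 34.99, and its summit lay 71 bases before the gene. The peak of 50.5 in replicate 1 overlapped the pooled peak, but no ranked peak of replicate 1 had its summit within 100 bp of mir-54. Among these 12 peaks, the mir-52 values were thus several times the others in both replicates. The peak at F36H1.17, beside mir-51 and not among the 12, was stronger still.

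Within these families the pooled signal values differed between genes, some of which lie too close together for their peaks to be told apart. The F36H1.17 gene, at the strongest of the 289 peaks, ended 19 bp from the start of mir-51 on the same strand. In the pooled list the summit of that peak lay 101 bp from the mir-51 gene, just beyond the limit of 100 bp. In the ranked list of each replicate, a peak had its summit within 100 bp of mir-51, with 208 in replicate 1 and 238 in replicate 2. mir-53, mir-55 and mir-56 of the same family had no ranked peak of the pooled list within 100 bp. At mir-53 the ranked lists of the replicates held peaks of 13.2 in replicate 1 and 37.5 in replicate 2. In the mir-35 family, mir-37 and mir-38 had a ranked peak of 26.2 that overlapped the stronger peak at mir-35 and mir-36, and mir-41 had one of 48.1. mir-39 and mir-40 had none in the pooled list and one of 14.1 in replicate 1. Of 27 listed miRNA genes that were examined whatever their values, 6 (22.2%) had a peak at or above 60, all in the peaks just described. Of all 261 miRNA genes 14 (5.36%) had one. The list was chosen with earlier results of these data known and clustered genes share peaks, so the contrast is no evidence of enrichment. let-7 had been planned as well but was not among the 27. lsy-6, which sets the left and right identity of a pair of taste neurons, had a ranked peak of 27.5. mir-71, known for its effect on lifespan, had 20.99, and the muscle miRNA mir-1 had 17.8. Among the mir-58 relatives, 3 genes had a ranked peak that overlapped a stronger one with its summit upstream, beyond the limit of 100 bp. mir-58a had 12.5, beside a peak of 142 with its summit 234 bp before the gene. mir-81 had 3.05, beside a peak of 68.5 at 149 bp, and mir-82 had 38.3, beside a peak of 44.8 at 206 bp. The peaks of 142 and 68.5 reached the threshold of 60 but lay beyond the limit on distance. mir-58b had 28.9, and mir-58c and mir-80 had none in the pooled list, though mir-80 had 31.8 in replicate 2. mir-44 had 3.54, in a peak that overlapped that of mir-42 and mir-43, and mir-45 had 40.6. lin-4, a timing regulator of larval development, had no ranked peak in the pooled list and one of 8.24 in replicate 1. For the pooled peaks at mir-1, mir-41 and mir-82, neither replicate's ranked list held a peak with its summit within 100 bp of the gene. For those at mir-37, mir-45, mir-58a, mir-58b and mir-81 only a single replicate's list did.

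Of the remaining miRNA peaks only that at mir-229, in an intron of gcn-1, overlapped the conservative list. It had 87.4, with 49.2 in replicate 1 and 43.3 in replicate 2. mir-8192 had 83.1, mir-5548 had 73.8, mir-4805 had 73.7, mir-5549 had 72.8, mir-8189 had 67.0, mir-4812 had 66.9 and mir-4930 had 64.9. Of these 7, none overlapped both own lists, and mir-8192 and mir-4930 had replicate values more than 2-fold apart, both higher in replicate 1.

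SRP RNA is encoded by 5 annotated genes, and 3 of them had peaks at or above 60. srpr-2.2 (III:5031410-5031729), in an intron of the kinesin gene klp-6 on the opposite strand, had a signal value of 192, with 101 in replicate 1 and 80.7 in replicate 2. srpr-2.1 (III:5211070-5211389) had 134, with 48.0 and 78.4 at the nearest replicate summits, and a second peak of 98.8, with 57.5 and 23.1. srpr-1.2 (III:4369343-4369662), in an intron of ckb-2, had 131, with 65.3 and 56.6, and a second peak of 73.4, with 28.2 and 25.8. The peaks of a pair overlap each other, and the second peak of srpr-2.1 held the higher value in replicate 1 while the first held it in replicate 2. In the pooled list srpr-1.1 had a ranked peak of 54.8, below the threshold, and srpr-3 had none. The genes are near-identical: srpr-2.1 and srpr-2.2 share 99.0% of their bases, srpr-1.1 and srpr-1.2 share 98.3%, and srpr-3 shares 81.9% to 83.3% with the others. How reads were divided among the copies is not given in the sources used here, so the order of the 4 near-identical genes is uncertain.

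Among the other noncoding genes examined whatever their values, tts-1, a long RNA known to associate with ribosomes in long-lived worms, had a peak of 65.1, with 30.5 in replicate 1 and 32.8 in replicate 2. In the pooled list rncs-1, a known inhibitor of Dicer, had a ranked peak of 22.5, and yrn-1, a Y RNA, had none.

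At lincRNA genes, which are long and mostly of unknown role, lay 14 peaks. Their median signal value was 67.2, against 70.2 for all 3912 peaks at or above 60. Of the 14, 3 overlapped the conservative list and 0 both own lists, against 30.1% and 8.64% of all 3912. linc-128 had the strongest (V:1151328-1151647), with 113 in the pooled list, 61.8 in replicate 1 and 55.4 in replicate 2, and further peaks of 68.9 and 60.9. linc-91 had peaks of 77.7 and 67.6, both in the conservative list, and linc-95 had 76.8 and 74.9. linc-129 had 3 peaks, the highest 73.2. linc-90 had 66.8, with 17.5 in replicate 1 and 62.5 in replicate 2. linc-18 had 65.9, linc-110 and linc-133 shared a peak of 63.2, and linc-153 lay at a peak of 60.6 with 2 ncRNA genes. The ncRNA gene C30E1.9, of 14770 bases on X, had the most peaks of any gene. It had 7, from 63.5 to 128, of which 5 overlapped the conservative list and 3 both own lists, and 1 of those 3 lay in sequence with 47 matches in the genome.

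Summits lay mostly inside the genes. Of the 289 summits, 176 (60.9%) lay inside the nearest gene, 65 (22.5%) before its 5′ end and 48 after its 3′ end. Of the 28 peaks in both own lists 24 lay inside. For the 260 peaks whose nearest gene was shorter than 500 bases, the median summit lay 48.5 bp after the 5′ end, and 112 lay within 50 bp of it. Among the 20 strongest peaks 18 lay inside the gene and 13 within 50 bp of the 5′ end. The rule fixed the summits to within 100 bp of a gene, so only their order within that space is open. For 77 peaks more than 1 gene lay in reach, 68 with 2 and 9 with 3, and the nearest 5′ end was used.

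**Figure D3:**
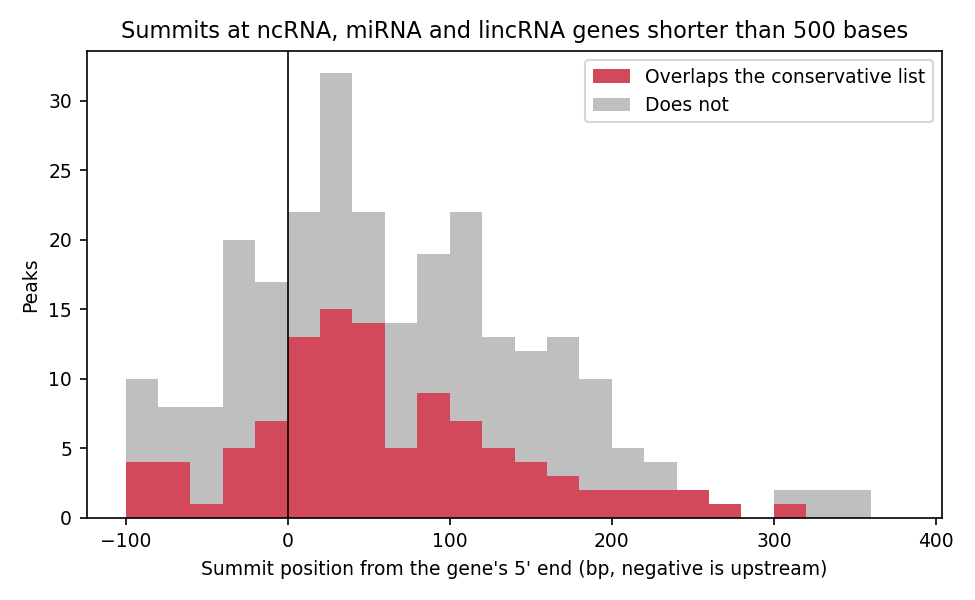
Number of peaks (vertical axis) by the distance of the summit from the 5′ end of the nearest gene in bp (horizontal axis, negative is upstream), in bins of 20 bp, for the 260 peaks at genes shorter than 500 bases; peaks that overlap the conservative list are stacked below those that do not. The counts are highest in the first 60 bp of the gene, and the median is 48.5 bp.

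Most of the peaks were intergenic with respect to coding genes. There were 197 such summits (68.2%), 78 in introns (27.0%), 9 in untranslated regions and 5 in coding exons (1.73%), against 47.4%, 30.8%, 4.01% and 17.8% of all 3912. Of the intronic ones, 30 lay at a noncoding gene on the strand of the host gene and 48 at a gene on the opposite strand. The promoter window of a coding gene, from 1000 bp upstream to 200 bp downstream of a transcript 5′ end, held 118 of the 289 summits (40.8%), against 35.8% of all. Such peaks could not be assigned to the noncoding or the coding gene. They include 11 of the 20 strongest peaks, among them those at C14F11.14, mrpr-1, ZK816.9, F08G2.13 and W01D2.8. Naming these peaks by the noncoding gene, here and above, does not assign them to it. Others of the 11 are those at F59F5.9 beside the synapse gene syd-2 and at Y65B4BR.10 beside the ubiquitin ligase gene wwp-1. At T10C6.19, in the promoter windows of the histone genes his-3 and his-4, a peak of 117 lay in sequence with 6 matches in the genome. Peaks outside a promoter window had a median of 71.3, and those inside one 74.8, on the scale of the signal value.

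Chromosome X held 93 of the 289 peaks (32.2%, interval 27.1 to 37.8), against 17.8% of all 3912, and it also held 32.0% of the 8219 genes of these classes. The share of the peaks was thus near that of the genes. Chromosome V held 51, chromosome II 46, chromosome I 35, chromosome III 34 and chromosome IV 30. Of the 8219 genes 361 (4.39%) had a peak, counting every gene within 100 bp of a summit: 338 of 7764 ncRNA genes, 14 of 261 miRNA genes and 9 of 194 lincRNA genes. GC content within 100 bp of the summit had a median of 49.3%, against 45.3% for all and 46.8% for peaks at tRNA, snoRNA or snRNA genes.

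**Figure D4:**
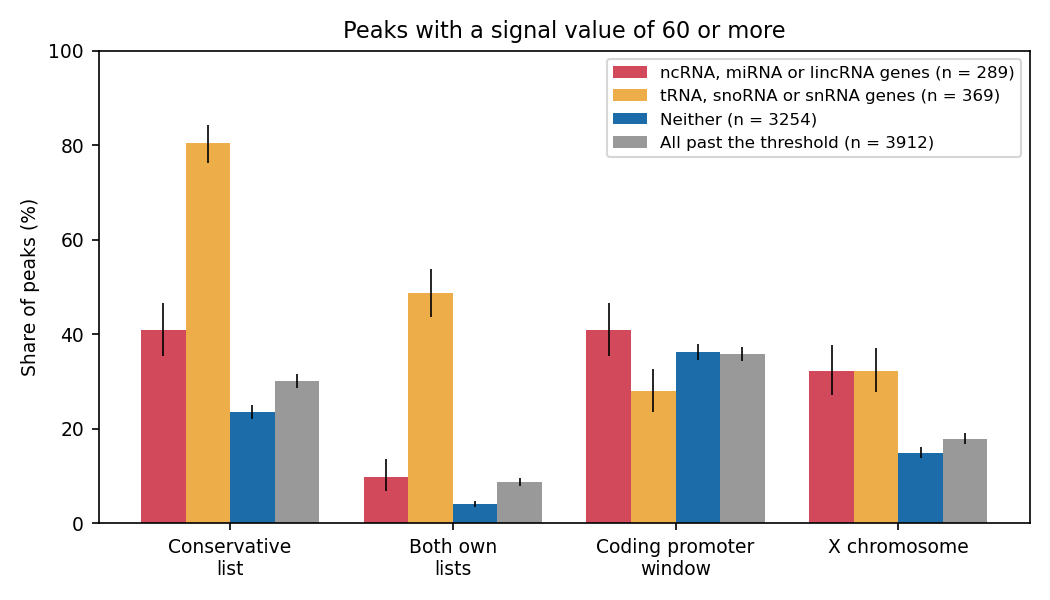
Share of peaks in percent (vertical axis) that overlap the conservative list, overlap both own lists, lie in a coding promoter window or lie on X, for the 289 peaks at ncRNA, miRNA or lincRNA genes, the 369 at tRNA, snoRNA or snRNA genes, the 3254 at neither and all 3912; lines are 95% Wilson intervals. The 289 peaks stand at 40.8%, 9.69%, 40.8% and 32.2%, against 30.1%, 8.64%, 35.8% and 17.8% of all.

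Motifs were searched as exact letters on either strand within 100 bp of the summit. A match is a description and not a bound site. GGTTCAA and TATATA were added after the sequences had been seen, so their counts among the strongest peaks are no independent evidence. GGTTCGA lay at 6 of the 289 peaks (2.08%), against 6.77% of all 3912, 50.4% of those at tRNA, snoRNA or snRNA genes, 2.24% of those at none and 1.1% of 29785 promoter windows of the same length. GGTTCAA lay at 8 (2.77%), against 3.78%, 16.8%, 2.40% and 2.42% in the same order, and 4 of these 8 were the peaks whose sequences are printed above. In all 14 peaks held either form, 5 of them among the 20 strongest. TATATA within 40 bases before the 5′ end was found at 4 of the nearest genes of the 20 strongest peaks (rpr-1, mrpr-1, F08G2.13 and W01D2.8), at 7 of all 258 nearest genes shorter than 500 bases (2.71%) and at 121 of 7983 such genes of the same classes (1.52%). TTTTT within 30 bases after the 3′ end was found at 5 of the nearest genes of the 20 strongest peaks (K10H10.11, F08G2.13, W01D2.8, srpr-2.1 and srpr-2.2). It was found at 33 of those 258 genes (12.8%), against 15.5% of the 7983. TATAAA lay at 9.34% of the 289 peaks, against 10.4% of all 3912.

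The T-box core GGTGTGA, the letters that T-box proteins are known to bind, lay at 13 of the 289 peaks (4.50%), against 69 of all 3912 (1.76%), 0.813% of those at tRNA, snoRNA or snRNA genes, 1.63% of those at none and 1.57% of promoter windows. None of the 13 was among the 20 strongest. The highest was C53C11.7 with 105, where replicate 1 had 50.4 and replicate 2 had 52.9. C54H2.10 had 99.8, with 52.5 and 41.6, and R02D5.14 had 91.6, with 45.1 and 42.5. Of the 13, 6 overlapped the conservative list and 0 both own lists, against 30.1% and 8.64% of all 3912. The 8-mers found most often were CACACACA and AGACGCAG, each at 26 peaks (9.0%), against 4.04% and 4.29% of all 3912. They were picked for being most frequent in these same peaks, so this choice favours a higher share here and the contrast is no evidence of enrichment. The 41 bases around the T-box core are shown for the 3 strongest, with the core in capitals (X:17315147-17315187, minus strand; X:5764068-5764108 and V:14505003-14505043, plus strand).
C53C11.7: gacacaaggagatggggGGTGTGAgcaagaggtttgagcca
C54H2.10: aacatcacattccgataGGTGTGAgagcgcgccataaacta
R02D5.14: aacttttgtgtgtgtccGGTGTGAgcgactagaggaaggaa

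Most of the peaks lay in unique sequence. For 268 of the 289 (92.7%) the 301 bp around the summit had no second match of at least 90% identity over 150 bases in the genome, and this held for 18 of the 20 strongest, the exceptions being srpr-2.2 and srpr-2.1. The other 21 include Y51A2D.37 with 151 matches, T06A4.6 with 110 and F45H7.15 with 98. How reads from such sequence were placed is not given in the sources used here.

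Listed genes for RNA polymerase III, for RNase P, MRP, La and La-related proteins, and for the miRNA machinery carried some peaks in their promoter windows. Over all coding gene symbols 1622 of 19877 (8.16%) had a peak at or above 60 there. Of 26 listed RNA polymerase III subunits and initiation factors 18 were in the annotation and 4 had a peak: the subunit genes rpac-19 (102) and rpc-2 (68.9), snpc-3.4 (63.7), of the complex that binds snRNA promoters, and the initiation factor gene brf-1 (62.0). Of 12 listed genes for RNase P and MRP proteins, La and La-related proteins, 8 were in the annotation and 4 had a peak: the La gene ssb-1 (108), larp-1 (85.9), larp-5 (73.7) and popl-4 (70.7). Of 19 miRNA machinery genes 2 had one, the exportin gene xpo-1 (100.3) and nhl-2 (75.6), a cofactor of the miRNA silencing complex. The nhl-2 peak is itself among the 289, at the ncRNA gene F26F4.14. None of these 10 peaks overlapped both own lists, against 8.64% of all 3912. The gene lists are short, so the counts are given as they stand.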

How the data were processed

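Chromatin immunoprecipitation sequencing of 2 biological replicates, forming 1 group by the labels' developmental stage, was analysed from the authors' peak lists on ce11, per the labels. Per the texts deposited with the samples, the series lists were made from both replicates' alignments; a further input to the thresholded lists has no stated role. The sources used here give no aligner, caller, version or depth. No control values were used. The authors' signal value is deposited per peak without a stated normalization; the deposited −log10 q-value entered no result; the deposited score that accompanies ranked peaks is −log10 IDR, where 2 is an IDR of 0.01.

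The genes, lists and peaks were chosen with earlier results of these data known. Summits were set against Ensembl release 115 (WBcel235) and sequences read from the RefSeq WBcel235 genome, with positions 1-based. Overlaps needed 1 bp. A replicate's value is that of its strongest overlapping ranked peak. Named were all peaks at miRNA and lincRNA genes, the 20 strongest peaks, listed noncoding genes, the 3 peaks on each side of the threshold, the extremes between replicates and up to 4 genes of each protein list. Other genes, the motif letters other than those of the B box, T-box and TATA box, and the SRP genes were chosen after their values or sequences had been seen. Python 3.11.15, pandas 2.3.3, scipy 1.17.1, matplotlib 3.10.9 and blastn 2.17.0 were used. The rule was tested on simulated summits. With 1 group of 2 replicates no test was made. Alternatives changed the list, threshold, distance, overlap, promoter window and motif window.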

Additional observations from a re-analysis of the deposited data

How the results depend on the processing

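The number of peaks depended on the threshold and the list. It was 289 as reported, 184 with the summit inside the gene, 545 at a signal value of 50 or more, 105 at 80 and 40 at 100. It was 122 in the conservative list, 114 in the second thresholded list and 114 with an IDR of 0.01 or less in place of the signal value. The count in both own lists was 28, and 45 to 53 with a single replicate's own list. The count in a promoter window was 118, and 40 with a window of 250 bp upstream to 50 bp downstream. The median signal value was 73.2, and 93.7 for peaks with an IDR of 0.01 or less. The mean of the replicates' values had a median of 37.2, on their own scale. With the window of 500 bp upstream to 100 bp downstream 0 of the miRNA machinery genes had a peak. The cause of these differences was not tested beyond what each setting removes. The other 23 alternative values stayed within 1.5 times the reported count, or, for the values that are not counts, moved by less than the spread. Depth is unknown, and with 2 replicates a site missing from an own list cannot be told apart from one below its threshold. No paired analysis was possible because there is only 1 group and no result comes from a test.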
